A study of Mus musculus with 3 samples.

Results

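The genes described here are the 10 that make, load and switch on MHC class II: the chain genes H2-Aa, H2-Ab1, H2-Ea and H2-Eb1, the loading modulator genes H2-Oa, H2-Ob, H2-DMa and H2-DMb1, the invariant chain gene Cd74 and the transactivator gene Ciita. They were chosen by name, as all probe sets that the platform annotation gives to these symbols. Each gene had 1 probe set with a single symbol, so they account for 10 of the 8220 genes and 10 of the 12588 probe sets that are not controls. Another probe set is listed for both H2-DMb1 and H2-DMb2 and entered no count.

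RNA came from LNC, a line of malignant B-1 cells that was started with the lymph node cells of 1 mouse of the New Zealand Black strain, about 1 year old. Cells of the first group were given an IL-10 antisense oligonucleotide at 20 µM, those of the next a scrambled oligonucleotide at 20 µM to control for effects of any oligonucleotide, and those of the last were left untreated, with RNA taken at 24 h. All 3 groups are the same cell line, and each was measured on 1 Affymetrix array, so there is no replicate error and no test. Whether an array held 1 culture or a pool of cultures is not stated in the labels.

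MHC class II molecules display peptides from endosomes to CD4+ T cells, and B cells carry them at rest. An alpha and a beta chain pair in the endoplasmic reticulum with the invariant chain, which fills the groove and steers the pair to endosomes. There H2-DM removes the last fragment of the invariant chain and lets peptide bind, while H2-O, made mainly in B cells, holds H2-DM back. The genes share promoter elements named the X and Y boxes, bound by the RFX and NF-Y complexes, to which Ciita is recruited without touching DNA itself.

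The RefSeq promoter windows of GRCm38.p6, from the reference strain C57BL/6J, were searched for the core letters of these elements, and 6 of the 10 genes matched an entry, with 7 windows in all. Each window runs from 250 bases before to 50 bases after a transcript start. The letters searched on both strands were ACNGATG for the core of the X box and CCAAT for the core of the Y box, which reads ATTGG on the opposite strand, and these words do not overlap each other. A Y core was present in windows of all 6 genes, while 37.4% of all 32851 windows held one. An X core was present for H2-Aa, H2-Eb1, H2-Oa and H2-DMb1, while 9.85% of all windows held one. An X core with ATTGG 5 to 40 bases after it was found for H2-Eb1, with a gap of 22 bases, and for H2-DMb1, with a gap of 23 bases, while 0.259% of all windows held such a pair on either strand.

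The 150 bases before the start are shown for 5 genes, on the strand of the gene and with X and Y cores in capitals, because these genes cover the chains that were lower on the array labelled antisense, H2-Aa and H2-Oa, and chains that were not, H2-Eb1 and H2-Ob, with H2-DMb1 added because it and H2-Eb1 hold the pair of cores. H2-Aa lies on the minus strand at chr17:34287824-34287973, H2-Oa on the plus strand at chr17:34092229-34092378, H2-Eb1 at chr17:34305717-34305866, H2-Ob at chr17:34238755-34238904 and H2-DMb1 at chr17:34153041-34153190, the last 3 also on the plus strand.
H2-Aa: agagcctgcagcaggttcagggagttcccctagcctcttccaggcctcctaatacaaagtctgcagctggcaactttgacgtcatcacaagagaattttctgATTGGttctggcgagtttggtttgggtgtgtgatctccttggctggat
H2-Oa: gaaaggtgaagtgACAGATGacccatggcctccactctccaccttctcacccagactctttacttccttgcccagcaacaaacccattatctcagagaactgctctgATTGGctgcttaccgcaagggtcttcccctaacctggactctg
H2-Eb1: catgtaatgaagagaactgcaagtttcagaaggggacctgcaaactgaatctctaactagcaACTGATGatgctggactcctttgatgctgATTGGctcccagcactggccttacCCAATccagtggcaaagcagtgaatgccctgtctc
H2-Ob: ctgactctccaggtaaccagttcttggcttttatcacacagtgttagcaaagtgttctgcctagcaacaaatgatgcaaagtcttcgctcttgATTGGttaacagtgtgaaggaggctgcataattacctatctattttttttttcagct
H2-DMb1: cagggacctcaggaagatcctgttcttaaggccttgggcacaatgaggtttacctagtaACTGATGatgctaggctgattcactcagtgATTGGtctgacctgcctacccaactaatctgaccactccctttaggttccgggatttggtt
Read as ATTGG, the Y core starts 48 bases before the start in H2-Aa, 43 in H2-Oa, 59 in H2-Eb1, 57 in H2-Ob and 61 in H2-DMb1. H2-Eb1 holds another Y core, read as CCAAT, 35 bases before the start. In H2-Oa the only match to the X core letters lies 137 bases before the start and far from the Y core. In H2-Aa the only match lies 232 bases before the start on the opposite strand, outside the stretch shown. H2-DMa has 2 windows, and neither holds an X core. A match is a matter of letters and was not set against any binding data. An X box with other letters would be missed by this search. A missing match therefore does not show that a gene lacks an X box or the pair.

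Intensities are the deposited values after scaling to a common trimmed mean, in arbitrary units. A noise floor of 595.9 was taken from the spread of values below 0, and a value at or under it was treated as not measured. The share of probe sets above the floor was between 42.0% and 42.6% on the 3 arrays, and 4539 probe sets were above it on every array. Il10, the targeted gene, was itself higher on the array labelled antisense, at 13946 there, against 5616 (scrambled) and 5164 (untreated). The RNA level thus runs against a simple loss of the target, and every direction below rests on the label of that array.

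Of the class II genes, 7 were above the floor on the 3 arrays: H2-Aa, H2-Ab1, H2-Ea, H2-Eb1, H2-Oa, H2-Ob and Cd74. H2-DMa was above it on both control arrays but not on the array labelled antisense, H2-DMb1 was above it on the untreated array alone, and Ciita on none.

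To judge a difference, the controls were set against each other: the yardstick for a gene is the 95th percentile of the size of their log2 difference among the 300 probe sets closest to it in level. It stands in for an error without being one, as an effect of the scrambled oligonucleotide would be part of it. Of the 7 genes, 5 were below both controls on the array labelled antisense, where 36.4% of all 4539 probe sets were. None of the 7 was higher than both, where 37.5% of all were. The differences of H2-Aa, H2-Oa and Cd74 passed the yardstick against both controls, 3 of 7 genes, where 2.97% of all probe sets did so downward and 2.86% upward.

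**Figure D1:**
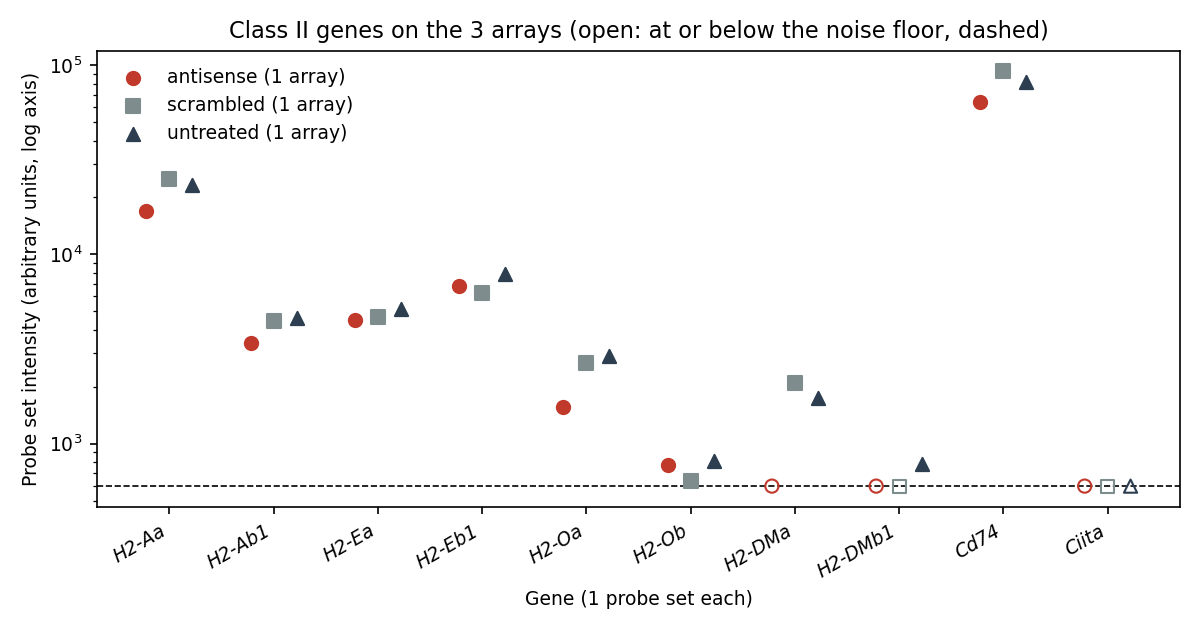
Probe set intensity in arbitrary units (log axis) of the 10 class II genes on the antisense, scrambled and untreated arrays, 1 point per array. The dashed line is the noise floor of 595.9, and open symbols are values at or below it, drawn on the line. H2-Aa, H2-Ab1, H2-Ea, H2-Oa and Cd74 have their lowest point on the array labelled antisense, and H2-DMa is under the floor there.

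Of the H2-A molecule, the alpha chain was lower past the yardstick and the beta chain was not. H2-Aa, the alpha chain, read 16961 on the array labelled antisense, against 25041 (scrambled) and 23224 (untreated). That was 1.48-fold lower than scrambled and 1.37-fold lower than untreated, or log2 differences of -0.56 and -0.45 against a yardstick of 0.33. The controls lay close together, 0.11 apart on the log2 scale, and the value of the array labelled antisense lay below both.

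H2-Ab1, the beta chain that pairs with it, read 3397 on the array labelled antisense, against 4459 (scrambled) and 4640 (untreated). Its log2 differences were -0.39 against scrambled and -0.45 against untreated. The yardstick is wider at this lower level than for H2-Aa, 0.56, and neither difference passed it. The log2 ratio of H2-Aa to H2-Ab1 changed by -0.17 against scrambled and by 0.00 against untreated.

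The chains of the H2-E molecule were not separated from the controls. The reference strain C57BL/6J does not make H2-E because its H2-Ea gene is broken, and RefSeq lists H2-Ea as a transcribed pseudogene. New Zealand Black mice carry another haplotype, known as d, in which the gene works. H2-Ea, the alpha chain, read 4521 on the array labelled antisense, against 4640 (scrambled) and 5169 (untreated), so all values lay well above the floor.

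H2-Ea differed by -0.04 against scrambled and -0.19 against untreated on the log2 scale, both within the yardstick of 0.51. H2-Eb1, its beta chain partner, read 6779 on the array labelled antisense, against 6274 (scrambled) and 7831 (untreated). The value on the array labelled antisense lies between the controls, at 0.11 relative to scrambled and -0.21 relative to untreated on the log2 scale, both within the yardstick of 0.41. The mean of the 2 H2-A differences was -0.48 against scrambled and -0.45 against untreated, while that of the 2 H2-E differences was 0.04 and -0.20. How far the H2-A and H2-E chains differ in response was not tested, and the gap between their means, -0.51 against scrambled and -0.25 against untreated, compares with a gap of 0.26 between the 2 control arrays.

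Cd74, the invariant chain, read 63917 on the array labelled antisense, against 92660.4 (scrambled) and 81644 (untreated). It was 1.45-fold lower than scrambled and 1.28-fold lower than untreated, with log2 differences of -0.54 and -0.35 against a yardstick of 0.33, so the second difference passed narrowly. Cd74 was among the brightest probe sets, and this range as a whole read lower there than on the scrambled array. Of the 124 probe sets above a mean intensity of 50000, 47.6% lay below both controls and 16.9% above both, with a median log2 difference of -0.20 against scrambled and 0.00 against untreated. Bright control probe sets differed among themselves. The one for beta-actin differed by -0.46 against scrambled and -0.04 against untreated, and the one for Gapdh by -0.51 and -0.27. The one for BioDn, a bacterial spike-in that is added to the sample and not made by the cells, differed by -0.43 from either control, and the 6 dimmer spike-in probe sets were also lower than both controls. With the trend over level removed by lowess, Cd74 differed by -0.40 and -0.36, and both still passed. For H2-Aa the same step gave -0.53 and -0.46.

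**Figure D2:**
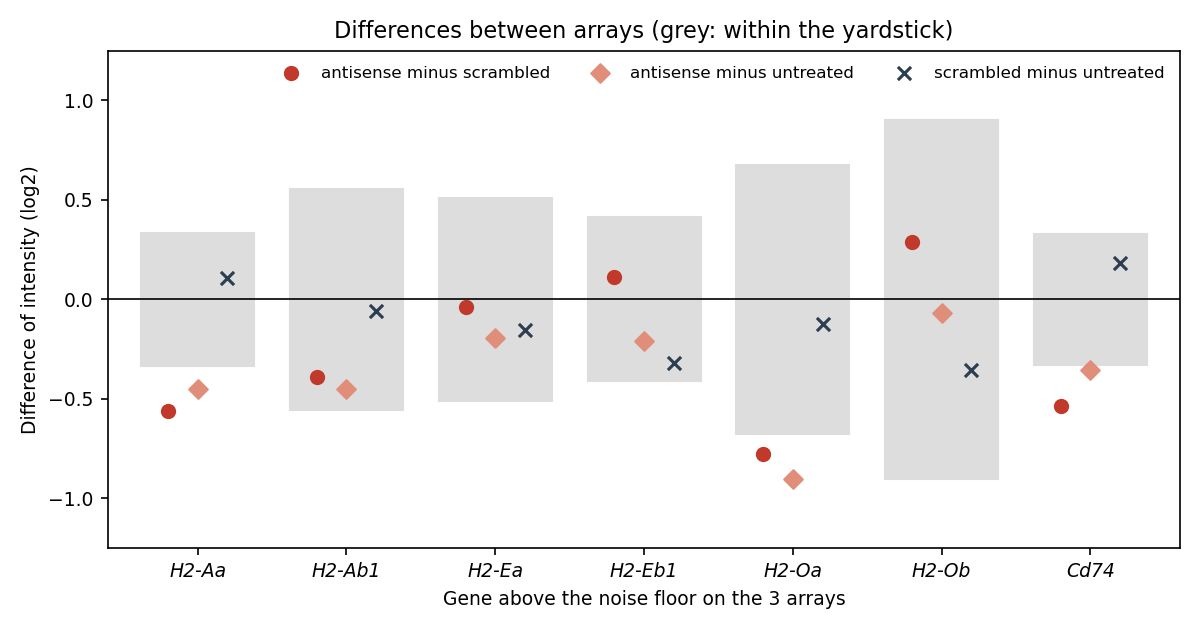
Log2 difference of intensity for the 7 class II genes above the noise floor on the 3 arrays, as antisense minus scrambled (circles), antisense minus untreated (diamonds) and scrambled minus untreated (crosses). The grey bars span the yardstick in both directions. Circles and diamonds of H2-Aa, H2-Oa and Cd74 lie below the grey bars, and the crosses of all 7 genes lie inside them. The bars are drawn from scrambled minus untreated differences, so most crosses fall inside by construction.

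Of the genes that modulate peptide loading, H2-Oa was lower past the yardstick, H2-Ob was within it, and H2-DMa and H2-DMb1 were under the floor on the array labelled antisense. H2-Oa, the alpha chain of H2-O, read 1560 on the array labelled antisense, against 2671 (scrambled) and 2913 (untreated). It was 1.71-fold lower than scrambled and 1.87-fold lower than untreated, or -0.78 and -0.90 on the log2 scale against a yardstick of 0.68. The value of the array labelled antisense lay below both controls, which were 0.13 apart.

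H2-Ob, the beta chain of H2-O, did not share this pattern. It read 771 on the array labelled antisense, against 632 (scrambled) and 808 (untreated), little above the floor of 595.9. On the log2 scale it differed from scrambled by 0.29 and from untreated by -0.07, within the yardstick of 0.90, which at this level is about as wide as the larger difference of H2-Oa.

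H2-DMa, the alpha chain of H2-DM, had the widest gap of the class II genes. It read 353 on the array labelled antisense, which is under the floor, against 2102 (scrambled) and 1750 (untreated). Measured from the floor, it was at least 3.53-fold lower than scrambled and at least 2.94-fold lower than untreated. As log2 bounds these are -1.82 and -1.55, against a yardstick of 1.21. H2-DMa is not among the 7 genes counted above, since it passed the floor only through the arrays on which it was high.

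H2-DMb1, the beta chain of H2-DM, read -403 on the array labelled antisense, against 186 (scrambled) and 785 (untreated). Only the last value is above the floor, so no fold is given against scrambled, and the bound against untreated, at least 1.32-fold lower, lay within the yardstick. Its identifier carries the suffix _g, which marks a probe set that can bind more than 1 transcript, and the near-identical gene H2-DMb2 may contribute. The probe set listed for both H2-DMb1 and H2-DMb2 was under the floor on the 3 arrays, at -338, 84 and 166 on the antisense, scrambled and untreated arrays. Probe sets for H2-DMb2 and for H2-Eb2, a chain gene next to H2-Eb1, were also under the floor on every array.

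Ciita, the transactivator, read -30 on the array labelled antisense, against 236 (scrambled) and 350 (untreated). All values were under the floor, so no level and no difference can be given, although transcripts of the chain genes it serves were well above it. Ciita is transcribed from several promoters, 1 of them used by B cells, and the annotation does not say which of these transcripts the probe set binds.

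The scrambled and untreated arrays did not differ beyond the yardstick for any of the 7 genes above the floor. As the yardstick is taken from this same comparison, few probe sets can pass it there, and the count adds no support. Among all 4539 probe sets, 1.7% lay lower in scrambled than in untreated by this measure and 2.2% lay higher. In each comparison of the array labelled antisense with a single control, the same 3 genes, H2-Aa, H2-Oa and Cd74, were lower past the yardstick. Downward differences past it made up 6.41% of all probe sets against scrambled and 4.45% against untreated. Upward ones made up 5.77% and 5.31%, and none of the 7 genes was among them. Both comparisons use the same array labelled antisense, so they are not independent.

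Over the 7 genes the median log2 difference was -0.39 against scrambled, with a range of -0.78 to 0.29, and -0.35 against untreated, with a range of -0.90 to -0.07. The medians over all 4539 probe sets were 0.00 and 0.01. Between the scrambled and untreated arrays the median of the 7 genes was -0.13. The probe set of Cd74 weighs on the first of these values: without probe sets above a mean intensity of 50000, the median over the other 6 genes was -0.21 against scrambled and -0.33 against untreated.

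These differences are relative to the bulk of each array. Scaled to 6 bacterial spike-in probe sets in place of the trimmed mean, the median of all probe sets moved to 0.50 against scrambled and 0.62 against untreated. On that scale H2-Aa differed by -0.05 and 0.18 and Cd74 by -0.02 and 0.28, so against untreated their sign turned, while H2-Oa stayed below both controls at -0.26 and -0.27. H2-Ob was then not above the floor on every array, and the median over the other 6 genes was 0.05 against scrambled and 0.23 against untreated. H2-Eb1, at 0.62 against scrambled, lay above the common shift of 0.50, but at 0.42 against untreated it lay below that of 0.62. In RNA from a whole culture, fewer cells that make a transcript and less of it per cell cannot be told apart.

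**Figure D3:**
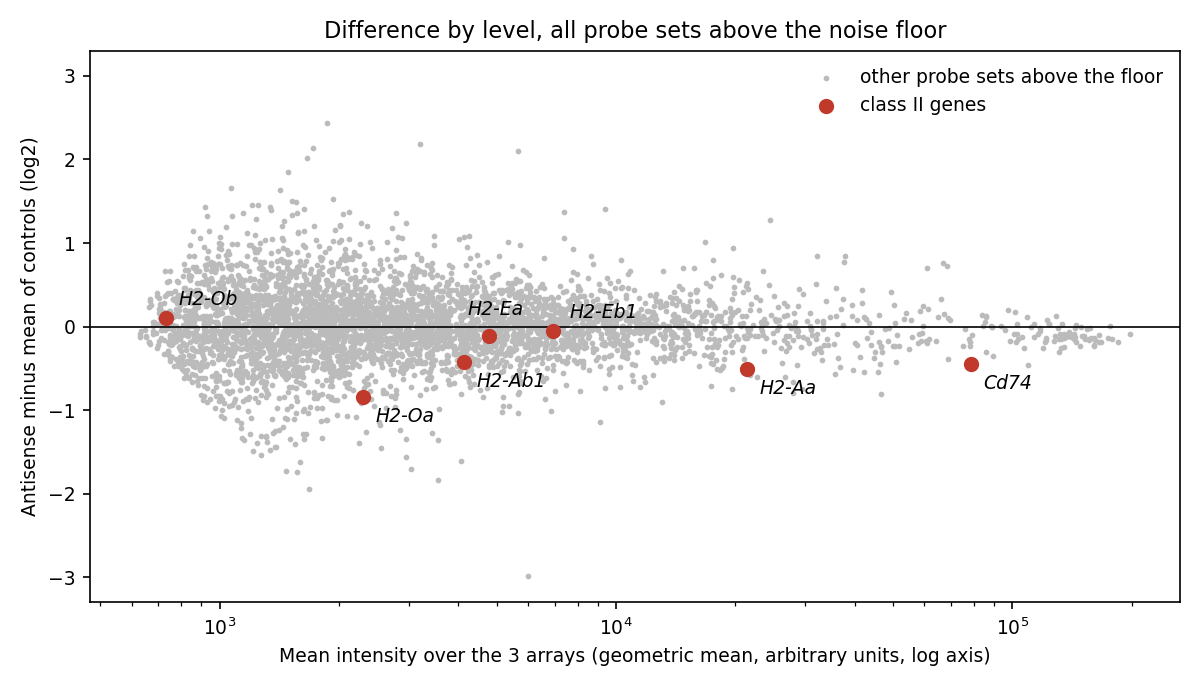
Difference between the array labelled antisense and the mean of the controls (log2) against the geometric mean intensity over the 3 arrays in arbitrary units (log axis), for the 4539 probe sets above the noise floor. Grey points are all such probe sets and red points the 7 class II genes. H2-Oa, H2-Aa, H2-Ab1 and Cd74 lie at -0.84, -0.51, -0.42 and -0.44, and H2-Ea, H2-Eb1 and H2-Ob at -0.12, -0.05 and 0.11.

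Of the genes for factors that bind the class II promoters, only those of NF-Y were above the floor on every array. NF-Y, which binds the Y box, was measured through its subunit genes Nfya, Nfyb and Nfyc. All 3 were slightly above both controls on the array labelled antisense, beside 37.5% of all probe sets. Their log2 differences of 0.11 to 0.40 were within the yardstick. Rfxank, a subunit of the RFX complex on the X box, read 355 on the array labelled antisense, against 1222 (scrambled) and 1378 (untreated). As the first value is under the floor, it was at least 2.05-fold lower than scrambled, within the yardstick, and at least 2.31-fold lower than untreated, slightly past it. Like H2-DMa, it passed the floor only through the arrays on which it was high and entered no count. A suffixed probe set of Rfxank was under the floor on the 3 arrays. Creb1, which binds next to the X box, was under the floor in all of its probe sets, and Rfx5 and Rfxap were not analysed here.

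Of the genes known to act on Ciita, 10 of the 17 that could be read passed the floor on every array. Below both controls lay 6 of them and above both 2, where 36.4% and 37.5% of all probe sets did. Past the yardstick Ezh2 was lower and Irf4 higher, 1 gene each way, where 2.97% and 2.86% of all were. Irf4, an interferon regulatory factor of activated B cells and plasma cells that can act at Ciita promoters, read 24443 on the array labelled antisense, against 16268 (scrambled) and 15737 (untreated), 1.50-fold and 1.55-fold higher. Ezh2, a histone methyltransferase that can silence Ciita, read 8899 on the array labelled antisense, against 13436.5 (scrambled) and 13598.5 (untreated), with log2 differences of -0.59 and -0.61. Irf8, a relative of Irf4, differed by 0.64 against scrambled and 0.90 against untreated, within the yardstick of 1.23. Prdm1, which encodes Blimp-1, the plasma cell factor that represses Ciita, read 1298 on the array labelled antisense, against 472 (scrambled) and 587 (untreated). Both control values are under the floor, so it was at least 2.18-fold higher than either. It passed the floor only through the array on which it was high and entered no count. Pax5, a B lineage factor that keeps Prdm1 down, differed by -0.27 and -0.11, within the yardstick. Usf1, which binds a Ciita promoter, separated the controls from each other, at 6714 on the array labelled antisense, against 7229 (scrambled) and 3933 (untreated). Both chains of the interferon-gamma receptor, Ifngr1 and Ifngr2, were under the floor.

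Among 12 endosomal processing genes above the floor, 6 were lower than both controls on the array labelled antisense and 4 higher, beside the same 36.4% and 37.5% of all probe sets. The 3 that passed the yardstick were lower, Ctsh, Napsa and Hspa8, beside 2.97% of all. Ctsh, a cathepsin that trims peptides, read 4844 on the array labelled antisense, against 7245 (scrambled) and 8042 (untreated). Napsa, an aspartic protease, read 35729.6 on the array labelled antisense, against 52527 (scrambled) and 51608 (untreated), with log2 differences of -0.56 and -0.53. Hspa8, a cytosolic chaperone with a part in bringing proteins to lysosomes, differed by -0.42 and -0.55.

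Ctss, the protease that B cells use to degrade the invariant chain, read 13343 on the array labelled antisense, against 12034 (scrambled) and 14246 (untreated), between the controls. Ctsd, a cathepsin, went the other way, by 0.67 against scrambled and 0.58 against untreated, the first just past and the second within the yardstick of 0.66. Ifi30, a thiol reductase of endosomes, separated the controls from each other: it read 9389 on the array labelled antisense, against 12724 (scrambled) and 8852 (untreated).

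Of 7 genes of class II turnover and co-stimulation above the floor, 4 were lower than both controls and 2 higher, beside 36.4% and 37.5% of all probe sets, and none passed the yardstick against both. Cd40, the receptor for T cell help, differed by -0.39 and -0.33, and Cd37, a tetraspanin of B cells, by -0.37 and -0.29, the difference of Cd37 from scrambled being slightly past its yardstick of 0.33. Cd83, which restrains the removal of class II from the surface, was higher by 0.41 against scrambled and 0.72 against untreated, the second past the yardstick of 0.48. Icam1, an adhesion molecule for T cells, differed by 0.34 and 0.10, within the yardstick. Cd86, a ligand for T cell co-stimulation, was under the floor. Its relative Cd80 differed by -0.01 and -0.16 at a level of 923 to 1030.

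For comparison, 9 of 12 class I presentation genes above the floor were lower than both controls and 2 higher, beside 36.4% and 37.5% of all probe sets. With each gene read by its brightest probe set, none passed the yardstick against both controls. H2-K1 and H2-D1, the class I heavy chain genes, are read by family probe sets that can share transcripts. The brightest of H2-K1 differed by -0.53 against scrambled and -0.22 against untreated, and the brightest of H2-D1 by -0.45 and -0.15. A dimmer probe set of H2-D1 differed by -0.54 and -0.43, lower past its yardstick of 0.41 against both controls. Psmb8, an immunoproteasome subunit, differed by -0.24 and -0.25, within the yardstick. The light chain gene B2m read 22445 on the array labelled antisense, against 19830 (scrambled) and 24631 (untreated), between the controls. Tapbp, the tapasin gene, differed by -0.33 against scrambled and -0.57 against untreated, past the yardstick in the second comparison alone.

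**Figure D4:**
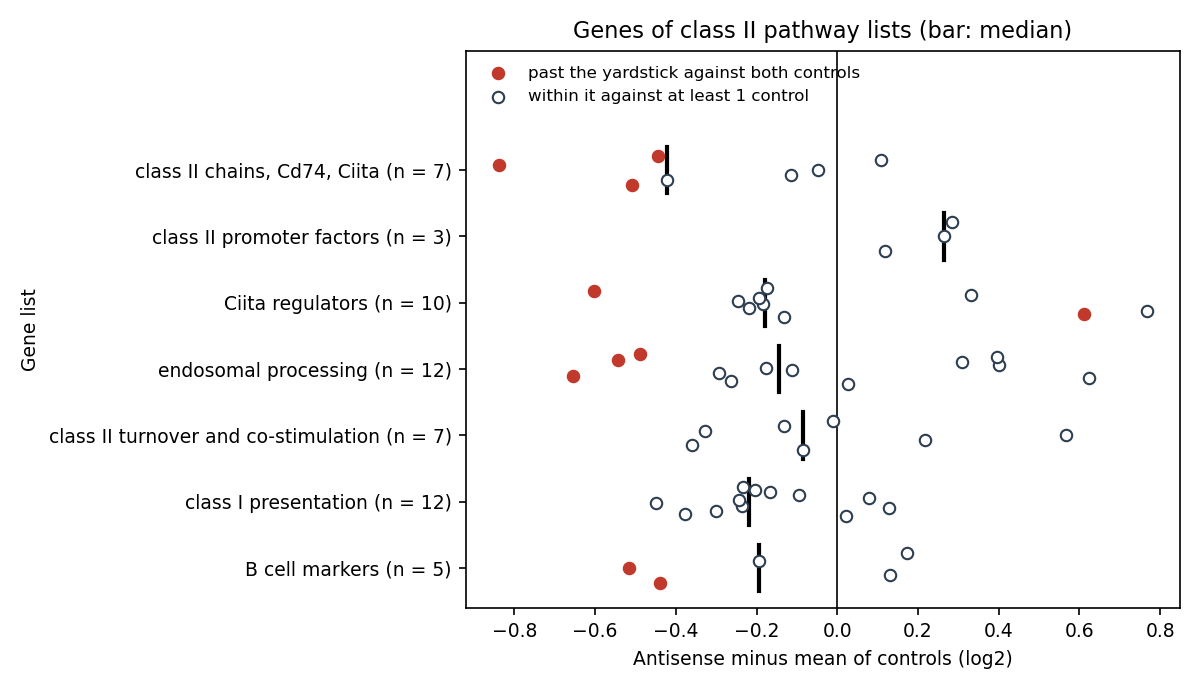
Difference between the array labelled antisense and the mean of the controls (log2), 1 point per gene above the noise floor on the 3 arrays, by gene list. Filled points passed the yardstick against both controls, open points did not, and bars are medians. The median of the class II genes is -0.42, that of the NF-Y subunits 0.26, and those of the other lists lie between -0.22 and -0.08.

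Markers checked the identity of the cells. Of 7 B cell markers on the array, 5 were above the floor. Of these, 3 were lower than both controls and 1 was higher, beside 36.4% and 37.5% of all probe sets, and 1 lay between them. The B cell receptor gene Cd79a read 21473, 30469 and 27790 on the antisense, scrambled and untreated arrays, and Ms4a1, which encodes CD20, read 31106, 44803 and 44237. Both were lower on the array labelled antisense past the yardstick, 2 of the 5 genes, where 2.97% of all probe sets were. The log2 differences were -0.50 and -0.37 for Cd79a and -0.53 and -0.51 for Ms4a1. Pax5 was lower by the values given above, within the yardstick. Cd79b, the partner of Cd79a, differed by 0.15 and 0.11, and the kinase gene Blk by 0.44 against scrambled and -0.09 against untreated, all within the yardstick. The summed level of these 5 genes was 63774 on the array labelled antisense, against 87395 (scrambled) and 83843 (untreated), most of it from Cd79a and Ms4a1, and its part in the class II differences was not tested. Cd22 and Cd5, a marker of B-1 cells, were under the floor.

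Of 9 macrophage markers, 3 were above the floor on every array, Cd14, Cd68 and Msr1, with a summed level of 3165 on the array labelled antisense, against 3133 (scrambled) and 3566 (untreated). Cd14 differed by -0.52 against scrambled and -0.92 against untreated, Cd68 by 0.79 and 0.64 and Msr1 by -0.10 and 0.20, all within the yardstick. The defining genes Lyz2, Adgre1 and Itgam were under the floor on each array. Csf1r, in its brighter probe set, was above the floor on the untreated array alone, at 949. It read -102 on the array labelled antisense and 460 on the scrambled array. Of 7 dendritic cell markers, 3 were above the floor on every array, with a summed level of 67069 on the array labelled antisense, against 67752 (scrambled) and 57019 (untreated). Most of it came from the chemokine gene Ccl22, which activated B cells can also make. Flt3 differed by 0.11 and 0.09 in its brighter probe set and by -0.67 and -0.53 in the other. Fscn1 differed by 0.62 and 0.32, and all these differences of Flt3 and Fscn1 were within the yardstick. Ccr7 read 1675 on the array labelled antisense, against 753 (scrambled) and 475 (untreated, under the floor). It was higher past the yardstick, narrowly so against scrambled, and is not in the sum. Xcr1 was above the floor on the scrambled array alone. The defining genes Itgax and Zbtb46 were under the floor. Of 7 T cell markers, 6 were under the floor on every array, among them Cd3e, Cd3d and Cd3g. The one above it was Cd4, at 1266 on the array labelled antisense, against 2339 (scrambled) and 1349 (untreated), within the yardstick. Of 4 plasma cell markers, Xbp1 and Jchain were above the floor on every array, with a summed level of 7636 on the array labelled antisense, against 7634 (scrambled) and 8101 (untreated), and Sdc1 was under it. Prdm1 is not in that sum. It was above the floor on the array labelled antisense alone, at 1298 against 472 (scrambled) and 587 (untreated). As a bound, its log2 difference from either control was 1.12, narrowly past the yardstick of 1.10. For 18S ribosomal RNA 3-prime over 5-prime signal came to 8.13 on the array labelled antisense, against 4.48 (scrambled) and 1.72 (untreated). The ratio was thus highest on the array labelled antisense, and the controls also differed from each other. The part of this ratio in the class II differences was not tested.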

How the data were processed

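The authors deposited linear intensity values for 12654 probe sets, 66 of them controls, on each of 3 arrays. Values can be negative, and their trimmed mean, with 2% off each end, is 1500.0 on each array. The software and steps behind them are not given in the sources used here. Arrays were then brought to the same trimmed mean, taken over the 12588 other probe sets. The floor is 2 robust standard deviations of the values below 0, where the robust value is 1.4826 times their median size. Values under it were set to it before log2 was taken. The yardstick drew on the 6127 probe sets above the floor on any array. With 1 array per group no test was run, and the number of arrays limits the precision. Where a gene had several probe sets, the brightest on average stood for it. Symbols came from the platform annotation, updated through gene identifiers, and all 10 class II genes matched RefSeq.

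The genes, the 12 other lists and the tests were chosen with earlier results of these data known. The text names all class II genes, and from each other list up to 4 genes above the floor with the largest difference from the controls, together with regulators of Ciita. Values under the floor are named for defining markers, and a few more genes were chosen after their values were seen: Rfxank, Creb1, Cd86, Ctss, Ifi30, Cd80, B2m, Cd79b, Ccr7, Xcr1 and Csf1r. Alternatives in scaling, floor, probe sets, gene summary, filter, yardstick and motif gap were run with Python 3.11.15, numpy 2.4.6, pandas 2.3.3, scipy 1.17.1 and statsmodels 0.14.6. A planned comparison of protein sequences was not made.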

Additional observations from a re-analysis of the deposited data

How the results depend on the processing

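Scaling to the bacterial spike-in probe sets was the alternative that changed the results. It shifted all probe sets upward on the array labelled antisense and left 6 class II genes above the floor. Of these, 1 was then lower than both controls and 3 were higher. In either direction 0 passed the yardstick against both controls, and 0 passed it downward against scrambled or untreated. On that scale 4.96% of all 4474 probe sets above the floor were lower than both controls and 85.9% were higher. Past the yardstick, 0.156% were lower than both. The median difference of the class II genes turned to 0.049 against scrambled, 0.23 against untreated and 0.026 between the controls. That of all probe sets was 0.50 against scrambled and 0.62 against untreated. The differences of H2-Aa and Cd74 from untreated turned to 0.18 and 0.28. The cause of the lower spike-in signal on that array was not tested. Under the other alternatives run, between 4 and 6 class II genes were lower than both controls, 2 to 4 passed the yardstick and 0 were higher than both. The class II genes counted numbered 6 to 10. Of all probe sets, 36.1% to 40.1% were lower than both controls and 33.7% to 38% higher, or 15.6% and 18.1% without the filter. Past the yardstick, 2.71% to 3.26% were lower than both, or 1.22% without the filter. The median difference of the class II genes ranged from -0.46 to -0.21 against scrambled and from -0.46 to -0.33 against untreated. It was -0.21 against scrambled without the brightest probe sets and also without the filter, against -0.39 as reported. The lower floor of 1 robust standard deviation admitted H2-DMa, and the higher one of 3 removed H2-Ob. A gap of 10 to 30 bases left the same count of 2 genes with the pair of promoter motifs. Leaving out suffixed probe sets or averaging probe sets changed no value, since each class II gene above the floor had 1 probe set and none was suffixed. No paired analysis was possible because each group has 1 array. Signal near the floor limits H2-Ob, H2-DMa, H2-DMb1 and Ciita most.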
